A study of Mus musculus with 5 samples.

Results

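Fusion tissue and border-zone cartilage were compared within the knees of mouse embryos that carry a gain-of-function (GOF) allele of Pdgfra. The regions were chosen by the tags in the table's header alone. Of the 179 regions in the table, 48 belonged to the 2 GOF animals and carried either the tag fusion (17 regions) or the tag border-zone cartilage (31 regions). GOF replicate 1 gave 9 fusion and 15 border-zone regions, and GOF replicate 2 gave 8 and 16. Fusion regions were also tagged as Sox9-high interzone and were drawn in GOF knees alone. No label defines either term. The regions were drawn on sections stained for Sox9 protein and DNA, so the level of Sox9 transcript is no finding between them.

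RNA was measured by GeoMx digital spatial profiling of formalin-fixed, paraffin-embedded coronal knee sections at E14.5. In this assay barcoded probes bind transcripts on the section, light releases the barcodes from an area drawn by the user, and the released barcodes are sequenced. GOF animals carry Prrx1-Cre and the Pdgfra GOF allele, and control animals carry Prrx1-Cre without it. There were 2 animals of each genotype. Prrx1-Cre acts in limb bud mesenchyme, the source of cartilage, tendon, ligament and joint lining. The labels do not trace the lineage of single regions. The labels name neither the mutation in the GOF allele nor whether a control animal carries it unrecombined. Each region holds many cells, and fewer cells of a type cannot be told apart from less RNA per cell.

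Synovial joints form in the interzone, a band of flattened cells between future bones that express the growth factor Gdf5 and make less cartilage matrix than their neighbours. Cartilage matrix is built on collagens II, IX and XI with aggrecan, link protein and matrilins, whereas tendon, ligament and capsule are built on collagens I, III and V with small leucine-rich proteoglycans and periostin. Pdgfra is a receptor tyrosine kinase of mesenchymal and connective tissue cells that binds platelet-derived growth factors and signals through MAPK and phosphoinositide kinases.

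The values are counts scaled by the authors so that the upper quartile of all targets was the same in every region. Total recovered counts ran from 114484 to 525356 in fusion regions, with medians of 306130 and 189292 in GOF replicates 1 and 2. In border-zone regions they ran from 103052 to 440708, with medians of 185024 and 152976. Median total counts were therefore higher in fusion regions in both animals. The negative probe, which measures background, had medians of 3.12 and 2.26 in fusion and 2.85 and 2.57 in border-zone regions. Targets with levels of a few units sit close to it, which shrinks their fold changes. No table value was 0. Each animal gives 1 value per region type to a test, and the types of 1 animal enter together. The regions of 1 type in 1 animal were reduced to their mean log2(value + 1), and differences are on that scale. The levels given per animal are those averages turned back to the linear scale.

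A total of 19346 targets were tested. In the limma fit over all region types of the 4 animals, 5 targets were higher in fusion tissue at an adjusted p below 0.05 (0.0258% of targets) and 0 were lower, while 165 had an unadjusted p below 0.05. The 5 were Postn, Col26a1, Bgn, Col5a2 and Col1a2. This fit takes its spread from 22 averages that include a reference cartilage and a reference mesenchyme type of 1 region per animal. A second limma fit used only the 14 averages of the joint types, which are border-zone cartilage, perichondrium, inter-joint space and fusion. It is called the joint-region fit below, and it called 341 targets (1.76%), 242 higher in fusion tissue (1.25%) and 99 lower (0.512%), with 1813 at an unadjusted p below 0.05. A total of 0 targets had every fusion region above, or every one below, all border-zone regions of its animal. All 341 had the same sign in both animals, as did 53.4% of all targets. A difference of over 2-fold was seen in 16 of those called higher and 3 of those called lower. edgeR on the recovered counts of the same types called 328 (1.70%), 222 higher (1.15%) and 106 lower (0.548%), of which 277 were shared, 81.2% of the limma calls and 84.5% of the edgeR calls.

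The count of calls depended on the fit. Without the animal as a block the fit over all region types called 0 targets (143 at an unadjusted p below 0.05) and the joint-region fit 133. The fit over all region types also called 0 without any 1 of the 4 animals, with 77 to 192 at an unadjusted p below 0.05. The joint-region fit called 542 without GOF replicate 1 and 227 without GOF replicate 2, where the remaining GOF animal is assumed to vary like the other groups. It called 251 and 249 without control replicates 1 and 2. Calls named below come from the joint-region fit unless the fit over all region types is named, and beyond the 5 targets above none of the within-GOF differences passed the threshold there.

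**Figure D1:**
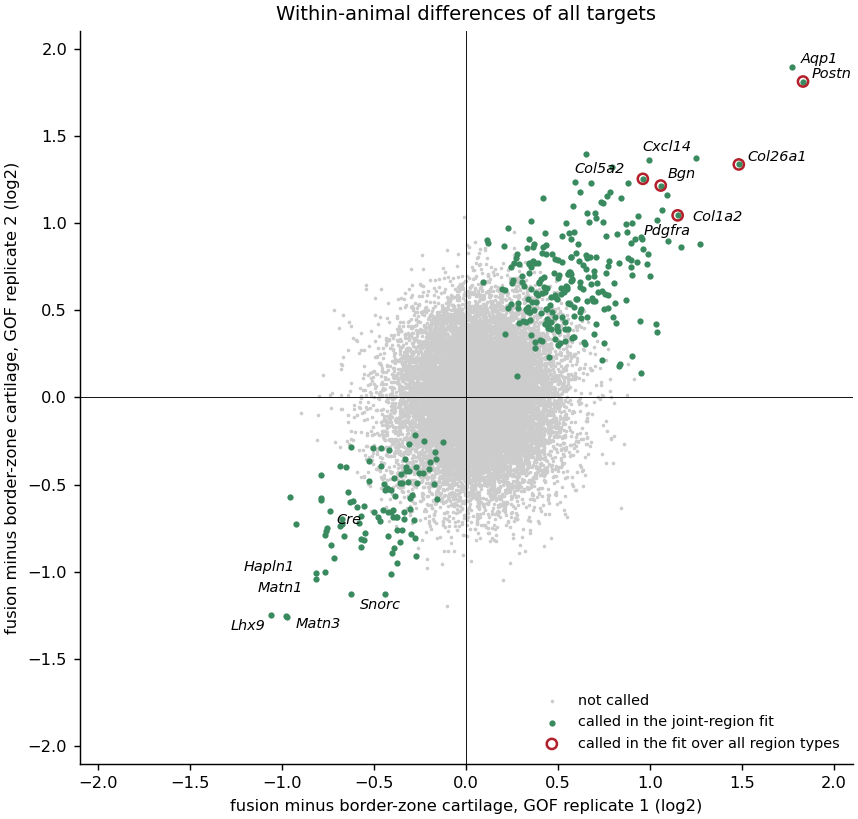
Difference between fusion tissue and border-zone cartilage (log2 scale) for each of 19346 targets, GOF replicate 1 on the x axis and GOF replicate 2 on the y axis. Green points are the 341 targets called in the joint-region fit, which lie at the upper right and lower left because their signs match in both animals; red circles mark the 5 targets called in the fit over all region types.

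Fusion tissue was rich in fibrous matrix transcripts. Postn encodes periostin, a secreted protein of tendon, ligament and periosteum that binds collagen. Its 9 fusion regions in GOF replicate 1 had a lowest value of 17.7, a median of 116 and a highest of 183, against 7.77, 17.7 and 113 in the 15 border-zone regions. In GOF replicate 2 the fusion regions had 13.3, 93.0 and 144, against 9.52, 18.6 and 91.9. The fusion medians were high in both animals, but the ranges overlapped: 5 of 9 and 5 of 8 fusion regions lay above the highest border-zone region, and 1 in each animal lay below the border-zone median. Averaged per animal, Postn was 78.8 ± 3.81 (SD, n = 2) in fusion tissue and 21.6 ± 0.868 in border-zone cartilage. The difference was 1.82 (SE 0.30, limma adjusted p = 0.038 over all region types; SE 0.09, adjusted p = 9.96e-25 in the joint-region fit), or 3.53-fold, and it was positive in 2 of 2 animals (1.83 and 1.81).

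Col26a1 encodes collagen XXVI. Its fusion regions had a lowest value of 19.8, a median of 44.3 and a highest of 96.8 in GOF replicate 1, and 29.4, 55.4 and 93.1 in GOF replicate 2. The border-zone regions had 5.44, 12.4 and 39.6, and 10.9, 17.2 and 114. Every fusion region lay above the border-zone median of its animal, and in GOF replicate 2 none lay above the highest border-zone region. The difference was 1.41 (SE 0.22, limma adjusted p = 0.038 over all region types), with 49.1 ± 9.52 in fusion tissue and 18.02 ± 4.94 in border-zone cartilage.

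Bgn encodes biglycan, a small leucine-rich proteoglycan that binds fibrillar collagen. Fusion regions had a lowest value of 19.0, a median of 58.9 and a highest of 118 in GOF replicate 1, and 24.2, 74.8 and 112 in GOF replicate 2. Border-zone regions had medians of 24.5 and 26.9 and highest values of 47.1 and 55.6. In both animals 6 fusion regions exceeded every border-zone region. The difference was 1.14 (SE 0.19, limma adjusted p = 0.0383 over all region types).

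Col5a2 encodes a chain of collagen V, which regulates the diameter of collagen I fibrils. Its fusion regions ran from 32.6 through a median of 61.4 to 122 in GOF replicate 1 and from 29.4 through 71.8 to 109 in GOF replicate 2. Border-zone regions ran from 18.7 through 31.3 to 57.0 and from 9.07 through 24.5 to 63.5. All 17 fusion regions were above the border-zone median of their animal. The difference was 1.11 (SE 0.18, limma adjusted p = 0.038 over all region types).

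Col1a2 encodes the second chain of collagen I, the main collagen of tendon and bone. Its fusion regions ran from 87.8 through 162 to 502 in GOF replicate 1 and from 72.5 through 247 to 435 in GOF replicate 2. Border-zone regions ran from 37.5 through 79.3 to 173 and from 50.0 through 98.8 to 216. The fusion regions spread more widely than the border-zone regions in both animals, with an SD over regions of 0.91 and 1.09 on the log2 scale against 0.61 and 0.58. The difference between region types was 1.10 (SE 0.17, limma adjusted p = 0.038 over all region types).

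**Figure D2:**
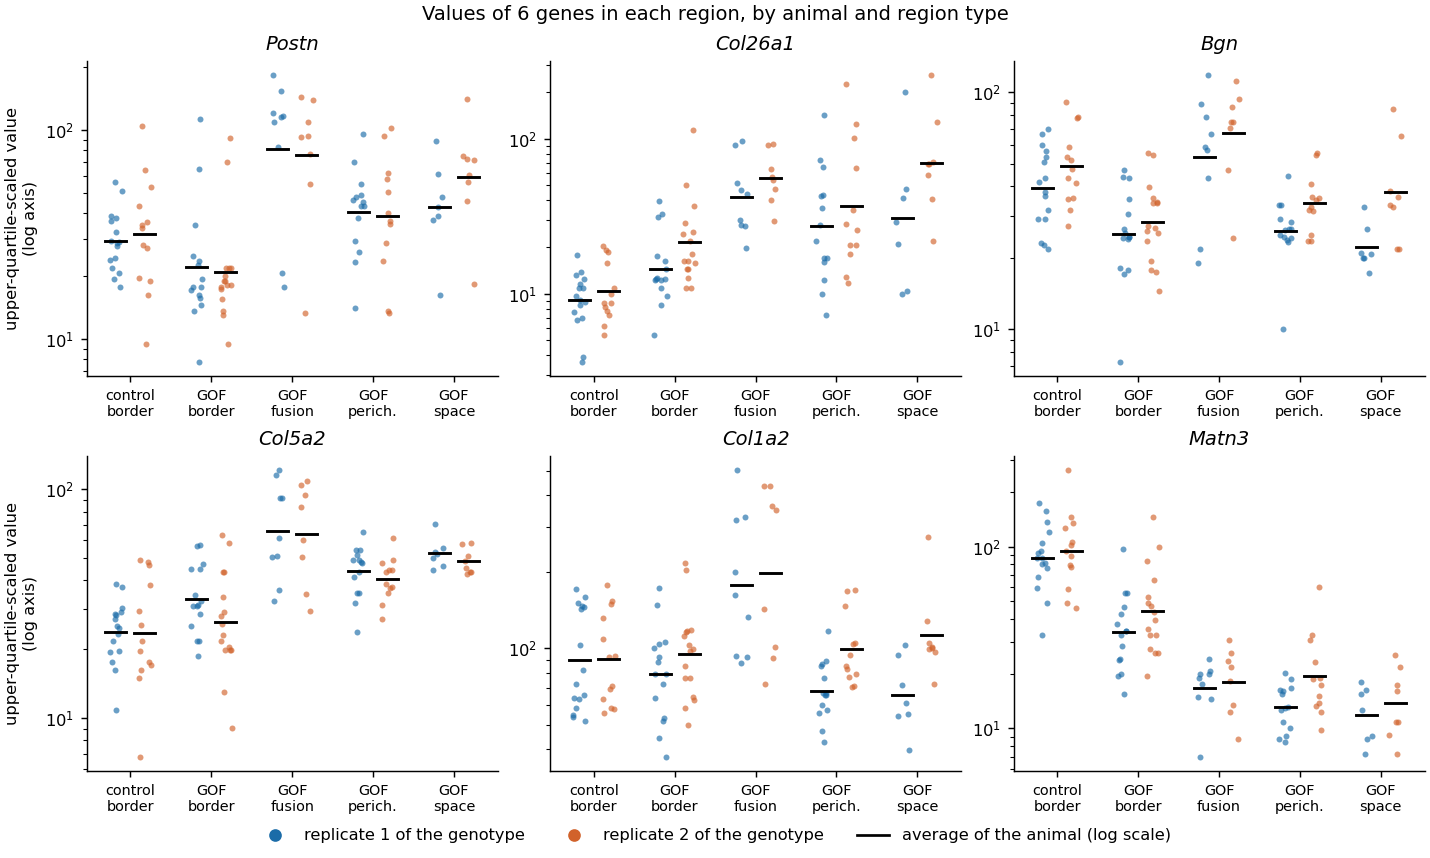
Values of Postn, Col26a1, Bgn, Col5a2, Col1a2 and Matn3 in each region (log axis), by region type and animal, with the average of each animal as a black bar. The fusion averages of the first 5 genes stand above the GOF border-zone averages in both animals while single regions overlap, and Matn3 shows the opposite order.

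Matn3, the cartilage gene among the markers of this comparison, went the other way. It encodes matrilin 3, an adaptor protein of the cartilage matrix. Fusion regions had a lowest value of 6.99, a median of 18.9 and a highest of 24.2 in GOF replicate 1, and 8.70, 19.9 and 30.5 in GOF replicate 2. Border-zone regions had 15.4, 34.2 and 96.5, and 19.3, 41.5 and 145. All 17 fusion regions lay below the border-zone median of their animal, and 3 of 9 and 4 of 8 lay below the lowest border-zone region. The level was 17.4 ± 0.895 (SD, n = 2) in fusion tissue and 39.1 ± 7.499 in border-zone cartilage, a difference of -1.12 (SE 0.11, limma adjusted p = 4.41e-12 in the joint-region fit), with an adjusted p of 0.108 in the fit over all region types.

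Postn, Col5a2 and Matn3 were chosen as markers with earlier results of these data known, so their directions are no independent support of the tag. The upstream sequence of these genes is shown for the 4 of the 6 plotted genes that have one in the RefSeq promoter table of build GRCm38.p6. Each is the 250 bases before the annotated start, read 5′ to 3′ on the gene's strand. Postn has 2 starts in that table, and the one at the outer end of the gene is shown. Capitals mark a CCAAT box (CCAAT), a GC box (GGGCGG) or a SOX-type motif (AACAAT) on either strand.
Postn, chr3:54359017-54359266, + strand: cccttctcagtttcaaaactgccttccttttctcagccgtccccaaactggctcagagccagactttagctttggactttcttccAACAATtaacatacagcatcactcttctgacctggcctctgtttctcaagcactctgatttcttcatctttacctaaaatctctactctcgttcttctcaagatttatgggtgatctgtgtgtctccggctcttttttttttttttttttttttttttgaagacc
Col1a2, chr6:4505368-4505617, + strand: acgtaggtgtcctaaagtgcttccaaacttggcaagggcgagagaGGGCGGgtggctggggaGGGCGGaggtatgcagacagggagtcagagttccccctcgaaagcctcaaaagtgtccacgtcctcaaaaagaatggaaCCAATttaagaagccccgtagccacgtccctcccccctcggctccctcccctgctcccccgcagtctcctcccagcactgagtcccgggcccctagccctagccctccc
Bgn, chrX:73483351-73483600, + strand: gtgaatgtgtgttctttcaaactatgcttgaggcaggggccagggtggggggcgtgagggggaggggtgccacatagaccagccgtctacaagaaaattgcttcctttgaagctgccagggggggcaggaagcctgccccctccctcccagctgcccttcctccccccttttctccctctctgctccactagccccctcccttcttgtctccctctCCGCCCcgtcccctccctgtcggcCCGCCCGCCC
Matn3, chr12:8947679-8947928, + strand: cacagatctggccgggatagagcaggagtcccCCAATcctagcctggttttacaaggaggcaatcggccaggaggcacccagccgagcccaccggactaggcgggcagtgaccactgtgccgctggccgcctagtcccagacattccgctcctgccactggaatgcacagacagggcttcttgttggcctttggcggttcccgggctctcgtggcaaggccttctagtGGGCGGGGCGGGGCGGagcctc
Both strands were searched for these 3 motifs, for a TATA box (TATAAA) and for an AP-1 motif (TGANTCA). Postn held AACAAT at position -165, counted from -1 at the base before the start, and none of the other motifs. Col1a2 held CCAAT at -109 and GGGCGG at -205 and -188. Bgn held GGGCGG on the opposite strand at -34, -10 and -6, the last pair overlapping. Matn3 held CCAAT at -218 and GGGCGG at -22, -17 and -12, which overlap. Among the 250 bases before all 32817 annotated starts, AACAAT was present in 9.42%, CCAAT in 33.8%, GGGCGG in 32.7%, TATAAA in 12.4% and TGANTCA in 6.75%. The matches are letters in a window and say nothing of binding. In the same annotation, Postn lies on chromosome 3 from 54359267 to 54391041, Col26a1 on chromosome 5 from 136741759 to 136883376, and Bgn on chromosome X from 73483601 to 73495936. Col5a2 lies on chromosome 1 from 45374331 to 45503282, Col1a2 on chromosome 6 from 4505618 to 4541543, and Matn3 on chromosome 12 from 8947929 to 8972028. The labels do not say where in each transcript the probes bind.

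Of 15 measured fibrillar and fibril-associated collagens, 10 were higher in fusion tissue and 0 lower, beside 1.25% and 0.512% of all targets. Their median difference was 0.73, against 0.03 over all targets. Col12a1, a collagen that coats fibrils in tendon and fascia, was 80.8 ± 2.71 (SD, n = 2) in fusion tissue and 37.9 ± 1.10 in border-zone cartilage (difference 1.07, limma adjusted p = 4.73e-15). Col1a1, the partner chain of Col1a2, differed by 1.02 (377 against 187, adjusted p = 2.04e-15). Of 30 genes of fibrous matrix and collagen cross-linking, 15 were higher and 1 lower, with a median of 0.34. Ltbp1, which holds latent TGF-beta in the matrix, differed by 1.08 at 43.02 and 42.97 in fusion tissue against 17.2 and 22.9. Thbs2, a matrix protein that affects fibril assembly, differed by 0.93 (adjusted p = 4.83e-06). It was 0.30 (limma adjusted p = 0.477) in fusion regions with a general interzone tag and 2.06 (adjusted p = 2.39e-10) in those without it. The elastic fibre and cross-linking members called higher included Eln, Fbn2 and Lox at 0.80, 0.89 and 0.63, named after their values were seen. Thbs1, the member that was lower, differed by -0.62.

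Cartilage matrix genes were lower, by less. Of 7 cartilage collagens 5 were lower and 0 higher, beside 0.512% and 1.25% of all targets, with a median of -0.38. Col2a1, the main collagen of cartilage, had a lowest, median and highest value of 848.5, 1805 and 5018 in fusion regions of GOF replicate 1 and 1390, 2529 and 4396 in GOF replicate 2. The border-zone regions had 860.5, 2795 and 5090, and 1977, 3381 and 5366. These ranges overlapped almost fully in GOF replicate 1. The difference was -0.38 (SE 0.07, limma adjusted p = 7.99e-05), and the level was 2191 ± 369.5 (SD, n = 2) in fusion tissue, 2855 ± 614 in border-zone cartilage and 577 in inter-joint space of the same animals. Col9a1, a collagen on the surface of cartilage fibrils, differed by -0.54 and Col11a1, which nucleates those fibrils, by -0.43.

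Of 18 measured cartilage proteoglycans, matrilins and link proteins, 10 were lower and 0 higher, beside 0.512% and 1.25% of all targets, with a median of -0.35. Matn1, another matrilin, was 164 ± 37.3 in fusion tissue and 319 ± 106 in border-zone cartilage (difference -0.93, limma adjusted p = 3.74e-13). Hapln1, the link protein that ties aggrecan to hyaluronan, was 104 ± 3.37 against 198 ± 25.04 (difference -0.91, adjusted p = 5.17e-12). Acan, which encodes aggrecan, was 157 ± 9.82 against 201 ± 43.8 (difference -0.34, adjusted p = 0.0151), and the distance between the types was smaller in GOF replicate 1 (-0.18) than in GOF replicate 2 (-0.50). Snorc and Epyc, both proteoglycans of cartilage, differed by -0.88 and -0.79. Among 11 chondrogenic transcription regulators only Runx3, a regulator of chondrocyte maturation, was called (-0.66, adjusted p = 0.016). Its fusion levels sat close to the negative probe, at 5.59 and 4.88 in regions with the general interzone tag and 6.83 and 3.02 in those without it. Neither kind of region alone gave a call for Runx3 (limma adjusted p = 0.0557 and 0.051). The median of the 11 regulators was -0.11, and Sox9, by whose protein the regions were drawn, was 187 against 203. Fgfr3, a receptor that restrains chondrocyte growth, and Pthlh, a signal that delays chondrocyte maturation, were the 2 of 12 prehypertrophic and hypertrophic genes called lower, at -0.60 and -0.47. Each call differed by kind of fusion region: Fgfr3 was -0.80 in regions with a general interzone tag and -0.24 (limma adjusted p = 0.325) in those without it, and Pthlh was 0.0464 (adjusted p = 0.935) and -1.41.

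**Figure D3:**
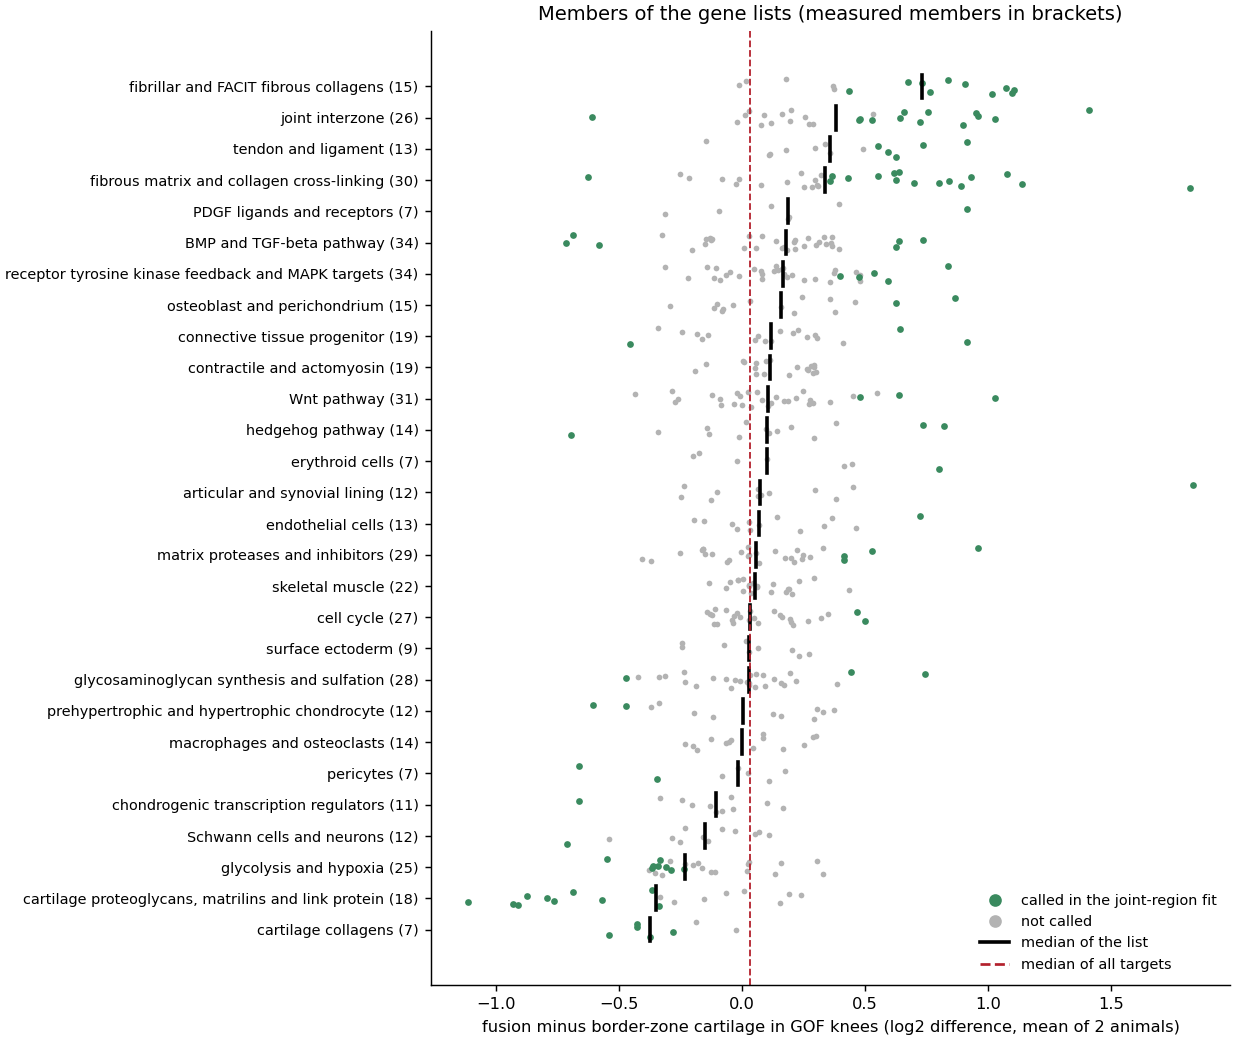
Difference between fusion tissue and border-zone cartilage in GOF knees (log2 scale, mean of 2 animals) for each measured member of 28 gene lists, with members called in the joint-region fit in green, the list median as a black bar and the median of all targets (0.03) as a dashed line. Medians range from -0.38 for cartilage collagens to 0.73 for fibrillar and fibril-associated collagens.

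Of 26 measured joint interzone genes, 12 were higher in fusion tissue and 1 lower, beside 1.25% and 0.512% of all targets, with a median of 0.38. Gdf5, the growth factor that marks the interzone, had fusion regions from 3.46 through a median of 15.2 to 31.7 in GOF replicate 1 and from 6.53 through 19.8 to 37.5 in GOF replicate 2. Border-zone regions ran from 3.63 through 6.73 to 17.1 and from 1.81 through 6.53 to 21.8. The lowest fusion regions sat at the level of the lowest border-zone regions, and 4 in each animal exceeded every border-zone region. The difference was 0.90 (SE 0.13, limma adjusted p = 6.34e-07). Dkk3, a secreted protein of the Dickkopf family, Htra1, a secreted serine protease, and Ebf3, a helix-loop-helix transcription factor, differed by 1.03, 0.96 and 0.95. Erg, an ETS factor of articular progenitors, differed by 0.72. In regions with the general interzone tag Dkk3, Htra1, Ebf3 and Erg were 1.31, 1.31, 0.53 and 0.88. In those without it they were 0.50, 0.32 (limma adjusted p = 0.223), 1.70 and 0.41 (adjusted p = 0.109). Prg4, which encodes the joint lubricant lubricin, stayed near background in both types, at 4.57 and 2.74 in fusion tissue and 3.995 and 3.971 in border-zone cartilage.

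Of 13 tendon and ligament genes 5 were higher and 0 lower, beside 1.25% and 0.512% of all targets, with a median of 0.36. Scx, the transcription factor that marks tendon progenitors, was 10.9 and 14.1 in fusion tissue and 8.18 and 7.20 in border-zone cartilage, a difference of 0.62 (limma adjusted p = 0.000517). Eya1, a transcriptional coactivator of connective tissue and muscle, differed by 0.91, and Igfbp5, which binds insulin-like growth factors, by 0.55. In regions with the general interzone tag Eya1 and Igfbp5 were 0.49 (limma adjusted p = 0.201) and 0.23 (adjusted p = 0.142). In those without it they were 1.69 and 1.15. The water channel Aqp1, a gene of the synovial lining list, stood out from the 11 other members of that list, none of which was called. Its fusion regions ran from 35.6 through a median of 68.0 to 106 in GOF replicate 1 and from 55.5 through 75.9 to 107 in GOF replicate 2. Border-zone regions ran from 7.77 through 19.2 to 71.5 and from 5.44 through 19.5 to 59.2. All 17 fusion regions were above the border-zone median of their animal, and the difference was 1.83 (SE 0.12, limma adjusted p = 4.11e-18), with an adjusted p of 1.0 in the fit over all region types. Aqp1 is also a gene of red blood cells and capillaries.

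Other secreted factors were among the largest differences. Cxcl14, a chemokine, was 18.9 ± 1.30 (SD, n = 2) against 7.002 ± 0.0375, and Igfbp3 and Igfbp2, further binding proteins of insulin-like growth factors, differed by 1.18 and 1.06. Gas2, a growth arrest protein of the cytoskeleton, differed by 1.13. Lhx9, a LIM-homeodomain factor of the early limb, had the largest negative difference among called targets with a level of at least 10, at 7.60 and 6.38 in fusion tissue against 17.0 and 16.5 (difference -1.16, limma adjusted p = 4.66e-11). Pou3f3, a POU-domain factor, differed by -1.12, and Cd24a, a surface glycoprotein of immature cells, by -0.82.

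The receptor itself was higher in fusion tissue. Pdgfra fusion regions ran from 53.5 through a median of 97.2 to 132 in GOF replicate 1 and from 62.0 through 85.4 to 116 in GOF replicate 2. Border-zone regions ran from 25.8 through 49.9 to 74.6 and from 19.9 through 44.2 to 100.3. In GOF replicate 1, 7 of 9 fusion regions exceeded every border-zone region, and in GOF replicate 2 it was 1 of 8. The level was 86.1 ± 3.35 (SD, n = 2) against 45.3 ± 1.597, a difference of 0.91 (SE 0.08, limma adjusted p = 1.29e-13; adjusted p = 0.552 in the fit over all region types). None of the 6 other PDGF ligands and receptors was called. The labels do not say whether the Pdgfra probes read the GOF allele differently.

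Of 34 genes that respond to receptor tyrosine kinases through MAPK, 5 were higher and 0 lower, beside 1.25% of all targets called higher, and their median difference was 0.17. These were Tcim, a small regulator of Wnt signaling (0.84), the early growth response factor Egr2 (0.59), the feedback inhibitor Spry1 (0.54), and the AP-1 factors Fosl2 (0.47) and Jund (0.40). With the general interzone tag Tcim, Egr2 and Fosl2 were 1.15, 0.65 and 0.53. Without it they were 0.25, 0.47 and 0.32 (limma adjusted p = 0.525, 0.146 and 0.459). Spry1 was 0.32 (adjusted p = 0.367) with the tag and 0.93 without it. Compared directly, the 2 kinds of region differed for Tcim (adjusted p = 0.00212) and Spry1 (adjusted p = 0.0292) but not for Egr2 and Fosl2. Egr1, the immediate early factor, was 56.1 and 62.5 in fusion tissue and 49.8 and 42.4 in border-zone cartilage (difference 0.36, adjusted p = 0.164). A target named Cre was 47.0 and 45.7 in fusion tissue against 79.9 and 77.4 in border-zone cartilage (difference -0.75, adjusted p = 3.46e-09). It was named after its values were seen.

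Secreted antagonists and receptors of other pathways moved in both directions. The list counts of this paragraph stand beside 1.25% of all targets called higher and 0.512% called lower. Of 34 BMP and TGF-beta genes 3 were higher and 3 lower. Nog, an antagonist of BMP that cartilage makes, differed by -0.72, while Chrd, another BMP antagonist, differed by 0.64. Ccn2, a TGF-beta target of cartilage and fibrous tissue, differed by -0.69. It was -0.99 in regions with the general interzone tag and -0.12 (limma adjusted p = 0.65) in those without it. Of 14 hedgehog genes Ptch1, the receptor and target of the pathway, was lower (-0.70). Its coreceptors Cdon and Gas1 were higher (0.82 and 0.74), while a further one, Boc, was not called (0.20). With the general interzone tag Cdon and Gas1 were 1.14 and 1.25. In regions without it they were 0.23 (limma adjusted p = 0.239) and -0.21 (adjusted p = 0.196). Boc was -0.0078 in regions with the tag and 0.57 (limma adjusted p = 0.000131) in those without it. Of 31 Wnt genes 3 were higher and 0 lower, which were Dkk3, Frzb and Sfrp2, all secreted Wnt-binding or Wnt-related proteins (1.03, 0.64 and 0.48). Frzb was 0.25 (limma adjusted p = 0.345) in regions with the tag, and Sfrp2 was -0.43 (adjusted p = 0.021) in those without it. Of 25 glycolysis and hypoxia genes 8 were lower and 0 higher, with a median of -0.23. The glycolytic enzymes Pgk1, Pkm and Eno1 differed by -0.37, -0.36 and -0.34. In regions with the tag they were -0.14, -0.05 and -0.22, and none was called there. None of 19 contractile genes was called, and of 27 cell cycle genes Ccnd2, a D-type cyclin, and Aurkb, a mitotic kinase, were higher (0.47 and 0.50).

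Single fusion regions carried cartilage and fibrous transcripts side by side. For each region, log2(value + 1) was averaged over the 45 fibrous genes of the collagen and matrix lists and over the 25 cartilage matrix genes. The fibrous level of fusion regions had a lowest, median and highest value of 4.65, 5.02 and 5.24 in GOF replicate 1 and 4.60, 5.03 and 5.21 in GOF replicate 2. Border-zone regions had 4.14, 4.40 and 4.88, and 4.26, 4.50 and 4.78. The fibrous level exceeded that of every border-zone region in 6 of 9 and 7 of 8 fusion regions. The cartilage level of fusion regions had 5.09, 5.58 and 6.63 in GOF replicate 1 and 5.23, 5.95 and 6.36 in GOF replicate 2, against border-zone medians of 6.20 and 6.38. A total of 0 of 9 and 3 of 8 fusion regions lay below the lowest border-zone cartilage level, and all 9 and all 8 exceeded the highest inter-joint space region of their animal. The highest perichondrium region was exceeded by 7 of 9 and 1 of 8. Fusion regions carry a Sox9-high tag and were drawn on sections stained for Sox9 protein. Their cartilage level beside inter-joint space and perichondrium is therefore not independent of how regions were chosen, and the part of that choice was not tested. The fibrous minus the cartilage level was above that of every border-zone region in 1 of 9 and 7 of 8 fusion regions. Across fusion regions the Pearson correlation of the 2 levels was 0.75 (n = 9) and 0.69 (n = 8), and across border-zone regions 0.22 (n = 15) and 0.33 (n = 16). These regions share an animal, and in GOF replicate 2 the cartilage level of fusion regions also correlated with the log2 total count (0.79, against 0.25 in GOF replicate 1). The correlation across fusion regions also mixes those with and without the general interzone tag. Median fibrous and cartilage levels without the tag were 5.21 and 6.24 in GOF replicate 1 and 5.18 and 6.01 in GOF replicate 2. With the tag they were 4.86 and 5.43, and 4.84 and 5.42. In GOF replicate 1 the highest tagged levels, 5.05 and 5.64, lay below the lowest untagged ones, 5.08 and 5.9. In GOF replicate 2 tagged regions reached 5.211 and 6.196, within the untagged ranges of 5.111 to 5.213 and 5.884 to 6.357. The parts of the total count and of the interzone tag in the correlation were not tested.

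**Figure D4:**
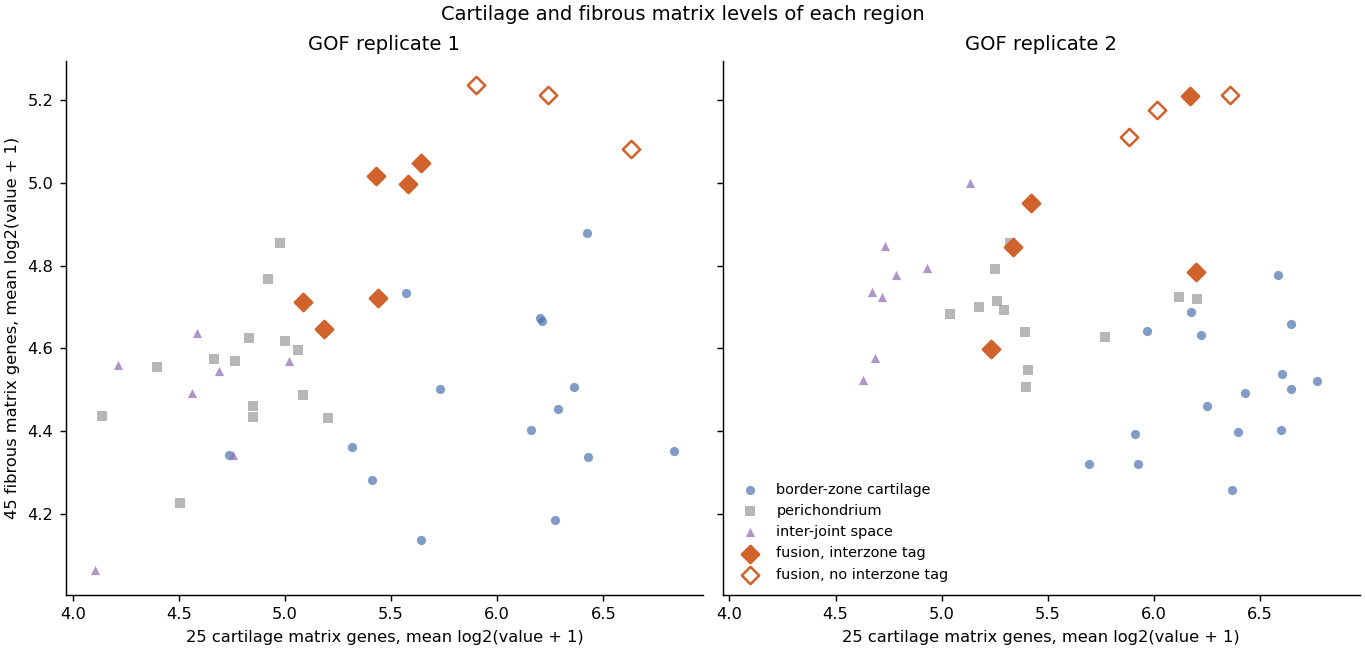
Mean log2(value + 1) of 25 cartilage matrix genes (x axis) and 45 fibrous matrix genes (y axis) in each joint region of the 2 GOF animals. Fusion regions (diamonds) lie above most border-zone regions on the fibrous axis. On the other axis they lie above the inter-joint space of their animal and overlap border-zone cartilage. Those without the interzone tag (open) lie at the upper right, where tagged regions reach into their range in GOF replicate 2.

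By tag, the fusion regions were of more than 1 kind, though their matrix levels overlapped in GOF replicate 2. A general interzone tag was carried by 11 of them, 6 in GOF replicate 1 and 5 in GOF replicate 2, and not by 3 in each animal. With the animal as a block, 304 targets were higher in tagged than in untagged fusion regions (1.57%) and 500 lower (2.58%) in a limma fit that was added after the tags had been read. Collagen I was the higher in untagged regions: Col1a2 was 122 and 128 in tagged and 375 and 408 in untagged regions of GOF replicates 1 and 2 (difference -1.64, SE 0.11, adjusted p = 6.83e-12). Gdf5 was the higher in tagged regions, at 17.9 and 24.7 against 4.54 and 7.54 (difference 1.68, adjusted p = 7.84e-09). In both cases the ranges of the animal averages stood apart. Sulf1, an enzyme that edits heparan sulfate and an interzone gene, differed by 2.06, and the Wnt antagonist Sfrp2 and Osr1, a zinc finger factor of connective tissue progenitors, by 1.43 and 1.52.

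Cartilage collagens were lower in the tagged regions. In the joint-region fit 246 targets were higher (1.27%) and 125 lower (0.646%) in tagged regions than in border-zone cartilage, and 524 were higher (2.71%) and 187 lower (0.967%) in untagged regions. Against border-zone cartilage, 7 of 7 cartilage collagens were lower in tagged regions (median -0.70), while in untagged regions 2 were higher and 0 lower (median 0.29). Col2a1 was 1452 and 2059 in tagged and 3409 and 3283 in untagged regions, which is a difference of -0.95 (SE 0.11, limma adjusted p = 4.48e-07). Matn1 differed between tagged and untagged regions by -1.37 and Col9a1 by -1.53. Of the 18 cartilage proteoglycans, matrilins and link proteins, 14 were lower and 0 higher in tagged regions (median -0.48), and 4 were lower and 1 higher in untagged regions (median 0.04). Snorc was lower than in border-zone cartilage in both kinds, by -0.78 in tagged and -1.07 in untagged regions, as was Epyc, by -0.84 and -0.70. Matn3 was also lower in both, at 15.1 and 23.7 in tagged and 20.4 and 11.3 in untagged regions, and the difference between them was 0.30 (SE 0.19, adjusted p = 0.411). Of the 26 interzone genes, 16 were higher and 0 lower in tagged regions against border-zone cartilage, and 6 were higher and 6 lower in untagged regions. Of the fibrous collagens 10 of 15 were higher in tagged and 12 of 15 in untagged regions. Glycolysis and hypoxia genes were lower than in border-zone cartilage in untagged regions (14 of 25, median -0.50) and near it in tagged regions (1 higher and 1 lower). Compared directly, 7 of 7 cartilage collagens were lower in tagged than in untagged regions, 12 of 26 interzone genes were higher and 1 lower, and 11 of 25 glycolysis and hypoxia genes were higher and 0 lower. Of the fibrous collagens 2 were higher and 7 lower in tagged regions. These direct counts stand beside 1.57% of all targets higher and 2.58% lower in tagged regions.

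Postn, Aqp1, Col26a1 and Pdgfra were higher than in border-zone cartilage in both kinds. Their differences in tagged regions were 1.61, 1.97, 1.55 and 1.04, and in untagged regions 2.22, 1.56, 1.11 and 0.66. Cre differed from border-zone cartilage by -1.62 in untagged regions, at 22.2 and 27.9, and was 68.0 and 61.3 in tagged regions (difference between them 1.34, adjusted p = 1.38e-08). Total counts of untagged regions had medians of 380385 and 204737 in GOF replicates 1 and 2, and those of tagged regions 297568 and 174392.

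**Figure D5:**
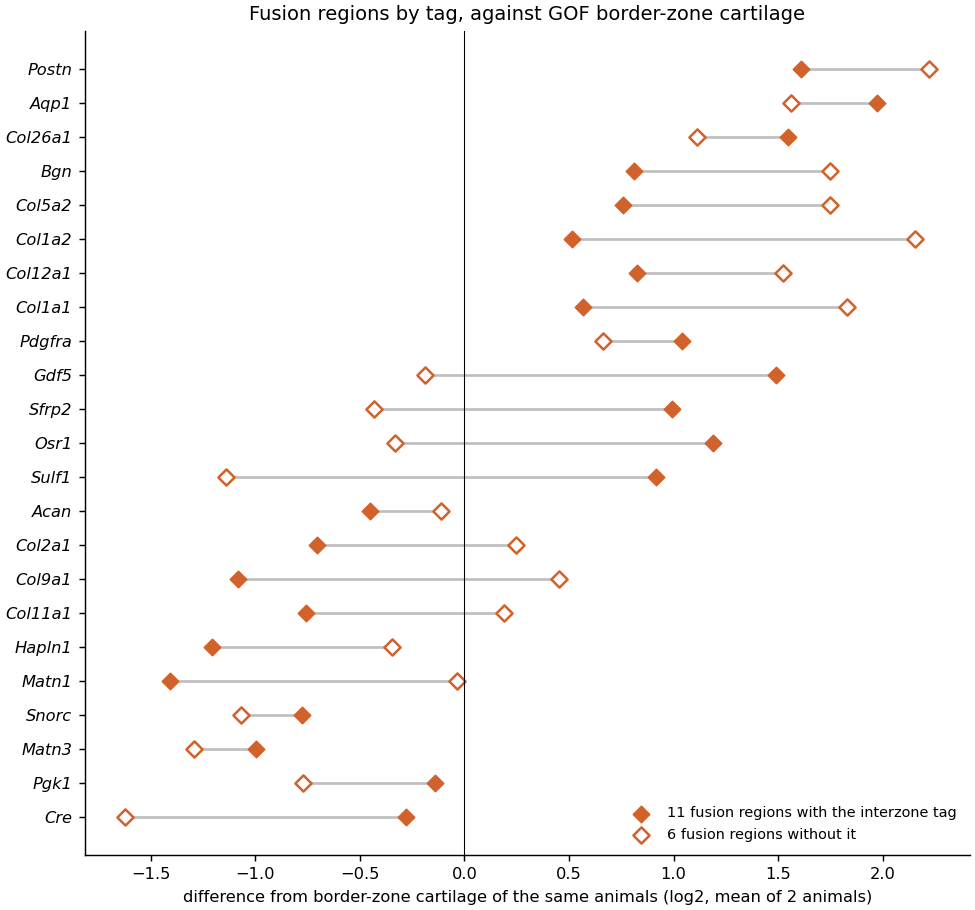
Difference from border-zone cartilage of the same animals (log2 scale, mean of 2 animals), for genes chosen after their values were seen, in the 11 fusion regions with the interzone tag (filled) and the 6 without it (open). Collagen I and biglycan are further from border-zone cartilage in untagged regions, whereas Gdf5, Sfrp2, Osr1 and Sulf1 lie above 0 in tagged and below 0 in untagged regions.

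Control border-zone cartilage, sampled in 16 and 13 regions, gave a cartilage outside the GOF genotype. This comparison lies between different animals and shares its fusion samples with the one above. In the limma fit over all region types 20 targets (0.103%) were called, 13 higher in fusion tissue (0.0672%) and 7 lower (0.0362%), and the count was 4, 6, 2 and 3 without GOF replicates 1 and 2 and control replicates 1 and 2. The fit of the joint types called 349 (1.80%), of which 240 were higher (1.24%) and 109 lower (0.563%). Of the 5 targets called within GOF knees, Col26a1 (2.21, adjusted p = 0.000553) and Col5a2 (1.41, adjusted p = 0.000782) were also called here over all region types. Matn3 was 90.6 in control border-zone cartilage, 39.1 in GOF border-zone cartilage and 17.4 in fusion tissue, and the difference between the first and the last was -2.32 (SE 0.22, adjusted p = 1.09e-05). The joint-region fit called 41 targets (0.212%) between the border-zone cartilage of the genotypes, 26 higher in GOF (0.134%) and 15 lower (0.0775%). GOF border-zone cartilage differed from control for Matn3 by -1.20 (adjusted p = 7.57e-07 in the joint-region fit).

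Egr1 and Serpina3n were among the targets called against control. Egr1 was 11.7 in control border-zone cartilage, 46.1 in GOF border-zone cartilage and 59.3 in fusion tissue, and its difference from control was 2.25 for fusion tissue (limma adjusted p = 0.0259 over all region types) and 1.89 for GOF border-zone cartilage (adjusted p = 1.51e-09 in the joint-region fit). Serpina3n, a secreted serine protease inhibitor, was 30.6 in control and 8.14 in GOF border-zone cartilage and 5.61 in fusion tissue. A target named mCherry/tdTomato was 13.8 in control border-zone cartilage, 239.5 and 321 in GOF border-zone cartilage and 318 and 449.6 in fusion tissue. No label names a reporter. Bgn was 44.0 in control and 26.7 in GOF border-zone cartilage (difference -0.70, adjusted p = 0.021 in the joint-region fit). Fusion tissue at 60.2 was therefore only 0.44 above control (adjusted p = 0.151 in the joint-region fit). The 30 genes of fibrous matrix and collagen cross-linking had a median GOF minus control border-zone difference of -0.28. Their median for fusion tissue against control was 0.20, with 6 higher and 2 lower, beside 1.24% and 0.563% of all targets. For the 15 fibrillar and fibril-associated collagens the medians were -0.05 and 0.57, with 8 higher and 0 lower. Pdgfra was 36.5 in control border-zone cartilage, and fusion tissue was 1.22 above it (adjusted p = 0.0459 over all region types).

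The regions could also hold other cells. Summed values of 7 measured erythroid genes had medians of 67.2 and 129 in fusion regions and 49.9 and 77.7 in border-zone regions of GOF replicates 1 and 2, with a highest value of 404 in a fusion region of GOF replicate 1. Hba-a1, an alpha globin, was higher in fusion tissue (difference 0.80, limma adjusted p = 5.13e-08), which bears on Aqp1, and the part of red blood cells in the Aqp1 difference was not tested. The 22 skeletal muscle genes summed to medians of 109 and 87.5 in fusion and 91.7 and 94.1 in border-zone regions, and 0 were called. The 13 endothelial genes summed to 101 and 103 against 91.5 and 92.2, with Erg, which is also an interzone gene, the 1 called. The 7 pericyte genes summed to 121 and 128 against 155 and 141, with 2 lower. Over all targets 1.25% were called higher and 0.512% lower. The sums of 14 macrophage and osteoclast genes were 73.2 and 64.5 against 67.9 and 68.3, those of 12 Schwann cell and neuron genes 65.3 and 63.4 against 76.1 and 81.4, and those of 9 surface ectoderm genes 51.3 and 48.9 against 51.2 and 44.3. The negative probe had medians of 3.12 and 2.26 in fusion and 2.85 and 2.57 in border-zone regions, so every member adds background to these sums. No target of the table was at 0 in any region, so values above 0 do not show that these cells were present.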

How the data were processed

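Regions of 4 mouse knees at E14.5 were measured with the GeoMx mouse whole transcriptome probe set, per the labels' protocols. The deposited table holds linear signal values, and the authors had set the upper quartile of all targets equal between regions, per the file headers. The submitters' processing notes list Seurat and mm10 without saying what each was used for, and no source used here names the counting pipeline. Within a region 99.98% of the values were whole multiples of 1 step (tolerance 0.01 of a count), so whole counts were recovered for edgeR 4.0.16 and DESeq2 1.42.0. A total of 4 targets were not whole in most regions. No column belonged to another sample, and the no-template control has no column and was not analysed here.

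The negative probe was left out, and regions of 1 type and animal were reduced to their mean log2(value + 1). These means entered limma (version 3.58.1, R version 4.3.3, a mean-variance trend in eBayes). Animal was a fixed block within GOF knees, since both region types come from the same animals, and as a random block against control. Residual degrees of freedom were 9 over all region types and 5 in the joint-region fit, with priors of 9.88 and 57.35. Adjustment followed Benjamini and Hochberg over all 19346 targets, and an adjusted p below 0.05 was a call. Within GOF knees the block removes shifts that an animal shows in all its region types. Those p-values measure the spread between the 2 animals of a genotype that is left, pooled over region types and targets. In the joint-region fit the prior, which pools over targets, outweighs the residual degrees of freedom. Against control the correlation between averages of 1 animal was estimated at 0.026 over all region types and 0.14 in the joint types. No permutation of 2 animals can reach 0.05. On simulated data the fit over all region types missed more of the changed targets than the joint-region fit but made no false call, whereas the joint-region fit made some.

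The members, the 28 gene lists and the fits were chosen with earlier results of these data known. Genes were named by rule: in each of the 2 fits, up to 12 called targets per direction with the same sign in both animals and a level of at least 10, up to 4 called members of each list, the 2 members with the highest values where a list had fewer than 2 called, a fixed set of markers, and 6 targets called against control alone. Genes outside the rule are said to have been named after their values were seen or stand in a count of 5 or fewer. Promoters, coordinates and names are from RefSeq GRCm38.p6, which matched 727 of 730 symbols. Alternatives were other fits, scalings, pseudocounts, filters, tag subsets and left-out animals.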

Additional observations from a re-analysis of the deposited data

Results flagged for a closer look

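In 3 of 40 sets of fusion or border-zone regions of 1 animal, the lowest region stood apart by Dixon's test, which at its 95% level sets apart about 1 in 20 sets by chance. The sets are regions of 1 animal, not replicates. The lowest Postn value among the 8 fusion regions of GOF replicate 2 was 3.84 on the log2(value + 1) scale, and its gap to the next region was 0.593 of the range. The same region was the lowest for Egr1, at 5.52, with a gap of 0.546 of the range. The lowest Matn3 value among the 9 fusion regions of GOF replicate 1 was 2.999, with a gap of 0.576 of the range.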

How the results depend on the processing

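Within GOF knees the fit over all region types gave 5 calls, and 5 or 6 with another pseudocount, a filter on low values, equal totals, negative probe subtraction or medians over regions, each with the same 5 among them. Tagged regions alone gave 5 calls, 3 higher and 2 lower, of which 1 was among the original 5. It gave 0 calls with no replicate block, with GOF animals only, after quantile normalization and without any 1 animal (77 to 192 targets at an unadjusted p below 0.05), and 2 with the animal as a random block. It gave 33 with untagged fusion regions, 109 with DESeq2, 233 with edgeR, 341 with the joint region types only and 410 with fusion and border-zone averages only. Over these settings the difference of Postn ranged from 1.61 to 2.46, Col26a1 from 1.11 to 1.69, Bgn from 0.81 to 1.75, Col5a2 from 0.76 to 1.75 and Col1a2 from 0.51 to 2.16, all positive. The joint-region fit gave 133 calls with no replicate block, 711 with untagged fusion regions, and 227 to 542 without 1 animal. Other settings of that fit gave 294 to 382. Against control border-zone cartilage 20 calls became 349 with the joint region types, and 2 to 6 without 1 animal. The blocked fits are within animals, and the cause of these shifts was not tested.

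Of 2751 comparisons of a single gene with its value under an alternative, 47 changed sign, 26 of them where fusion regions were split by tag. With untagged fusion regions alone the log2 differences turned to Adamts15 -0.23, Ccn1 0.40, Cdkn1c 0.0841, Col11a1 0.19, Col11a2 0.085, Col2a1 0.25, Col9a1 0.45, Col9a3 0.66, Epcam -0.22, Foxc1 -0.12, Gas1 -0.21, Gdf5 -0.19, Matn4 0.11, Osr1 -0.33, Sfrp2 -0.43, Sox9 0.0591, Sulf1 -1.14, Sulf2 -0.14, Tnnc1 -0.0505 and Wwp2 0.17. With tagged regions alone they turned to Boc -0.0078, Ccnd1 0.17, Ctsk -0.15, Krt10 -0.0083, Mcam 0.0657 and Pthlh 0.0464. With edgeR they turned to Col9a3 0.0876, Epcam -0.0338, Foxc1 -0.0074 and Myog -0.0027, with DESeq2 to Col9a3 0.0918, Epcam -0.028 and Foxc1 -0.0036, after quantile normalization to Col9a3 0.0161, Foxc1 -0.009 and Krt10 -0.0034, and with medians over regions to Eng -0.0315 and Myog -0.0943. Without 1 animal the differences ranged across 0 for Ccnd1 from -0.30 to 0.0159, Col9a3 from -0.15 to 0.10, Eng from -0.0135 to 0.30, Foxc1 from -0.0081 to 0.071, Krt10 from -0.19 to 0.22, Mcam from -0.29 to 0.26, Pdgfrb from -0.0225 to 0.25, Prg4 from -0.41 to 0.16 and Sox9 from -0.24 to 0.0265.

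Values near the negative probe understate fold changes, regions number 3 per animal in the untagged set, and 2 animals per genotype limit every p-value. Median total counts of fusion regions are above those of border-zone regions in both animals.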
